A study of Mus musculus with 12 samples.

Results

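BMAL1 peaks around Runx1, Runx2, Runx3, Cbfb, Sox5, Sox6 and Sox9, the genes of the RUNX family, of its common partner and of the chondrogenic SOX trio, were compared between control and senescent mouse adult fibroblasts (MAFs). These genes are 7 of the 21864 protein-coding genes of the annotation used (GENCODE M21, mm10). A peak was given to a gene when a protein-coding start site of that gene was the nearest one to the centre of the peak, at any distance, which gave 100 of the 35822 peaks in 6 lists. Peaks that overlapped by at least 1 bp were merged, and 59 of the 16818 merged regions held a peak of these genes. MAFs were primary cells kept at 3% oxygen, which the study's methods trace to ear tissue of female adult C57BL6/J mice. The control group had a sham irradiation. The senescent group received 20 Gy of X-rays and, per the study's methods, was kept in culture for some weeks afterwards. Both groups were then given 100 nM dexamethasone, a glucocorticoid that synchronizes their clocks, were collected 12 h later and were fixed for 10 min in 1% formaldehyde. Of 12 libraries, 6 were BMAL1-ChIP-seq libraries (n = 3 control, n = 3 senescent), and the 6 input libraries were not analysed here. Nothing in the labels says that replicates came from separate mice, so the p-values measure the spread between these libraries, which may be technical.

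RUNX proteins bind DNA through the Runt domain, which holds its site firmly only in a complex with CBFB, a subunit that does not itself contact DNA. RUNX2 is required for osteoblasts and drives the hypertrophy of chondrocytes, while SOX9 is the master regulator of cartilage and acts with SOX5 and SOX6 on cartilage matrix genes. BMAL1 is the clock factor that binds the E-box as a dimer with CLOCK.

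The sequences shown are those of the regions called in all 3 libraries of a group and in 0 of the other, of the regions called in all 6 libraries, of the best-ranked Runx1 region and of the Sox9 start site, because the description of Runx1 and of the SOX trio turns on them. Each sequence is the forward strand of GRCm38 (mm10) around the centre of the best-ranked peak of the region, 5′ to 3′, in lower case. The capitals mark exact matches on either strand to CACGTG (the canonical E-box), TGAGTCA or TGACTCA (AP-1) or TGTGGTT (RUNX). None of the 8 windows overlapped an annotated exon.
Runx1 intron, 3 control libraries and 1 senescent library, chr16:92653992-92654191: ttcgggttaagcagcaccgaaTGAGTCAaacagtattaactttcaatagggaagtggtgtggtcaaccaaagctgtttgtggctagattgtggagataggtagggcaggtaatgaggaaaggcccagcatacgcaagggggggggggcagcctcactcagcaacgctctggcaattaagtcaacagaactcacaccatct
Runx1 upstream, 3 senescent libraries, chr16:92997771-92997970: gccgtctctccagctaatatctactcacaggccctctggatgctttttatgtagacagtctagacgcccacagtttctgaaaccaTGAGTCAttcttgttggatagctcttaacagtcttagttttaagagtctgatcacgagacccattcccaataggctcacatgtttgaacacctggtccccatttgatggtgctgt
Sox5 intron, all 6 libraries, chr6:144074965-144075164: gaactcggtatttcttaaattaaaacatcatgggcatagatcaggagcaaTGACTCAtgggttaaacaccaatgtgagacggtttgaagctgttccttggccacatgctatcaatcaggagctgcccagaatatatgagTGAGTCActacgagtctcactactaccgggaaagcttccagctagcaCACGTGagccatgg
Sox6 intron, 3 control libraries, first region, chr7:115625022-115625221: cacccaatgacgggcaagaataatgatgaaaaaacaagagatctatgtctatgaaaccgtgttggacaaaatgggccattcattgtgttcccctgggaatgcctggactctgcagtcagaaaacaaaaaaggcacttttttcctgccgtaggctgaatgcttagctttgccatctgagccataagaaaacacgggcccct
Sox6 intron, 3 control libraries, second region, chr7:115548571-115548770: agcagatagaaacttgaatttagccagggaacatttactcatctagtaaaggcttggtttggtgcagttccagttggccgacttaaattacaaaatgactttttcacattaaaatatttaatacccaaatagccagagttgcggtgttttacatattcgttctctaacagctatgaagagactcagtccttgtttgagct
Sox6 intron, all 6 libraries, chr7:115686801-115687000: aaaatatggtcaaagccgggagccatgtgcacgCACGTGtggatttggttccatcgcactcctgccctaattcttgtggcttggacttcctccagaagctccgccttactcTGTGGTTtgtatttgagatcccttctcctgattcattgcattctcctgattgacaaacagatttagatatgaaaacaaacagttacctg
Sox9 start site, 2 control libraries and 1 senescent library, chr11:112781967-112782166: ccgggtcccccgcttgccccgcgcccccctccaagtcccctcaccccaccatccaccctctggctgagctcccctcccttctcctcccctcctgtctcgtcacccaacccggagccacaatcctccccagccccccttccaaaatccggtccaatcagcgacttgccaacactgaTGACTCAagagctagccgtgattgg
Sox9 downstream, 3 senescent libraries, chr11:113103237-113103456: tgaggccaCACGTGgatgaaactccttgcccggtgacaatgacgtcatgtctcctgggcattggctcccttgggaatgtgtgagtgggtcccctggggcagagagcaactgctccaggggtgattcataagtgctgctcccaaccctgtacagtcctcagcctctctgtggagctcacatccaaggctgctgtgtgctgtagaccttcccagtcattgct

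The Sox5 window held an E-box and AP-1 sites side by side, the Sox6 window called in all 6 libraries held an E-box and a RUNX site, and both Sox6 windows called in control libraries alone held no match to the panel.

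Each list held positions and scores but no read numbers. Sequencing depth is therefore unknown, and a peak that is missing was a peak not called. The lists were of very unequal length, with 2794, 3349 and 10601 peaks in control replicates 1, 2 and 3 and 4220, 9805 and 5053 peaks in senescent replicates 1, 2 and 3. Peak lists measure no expression, so the fibroblast label could not be checked against marker genes. In such bulk samples, fewer cells with BMAL1 bound and less BMAL1 bound per cell cannot be told apart.

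BMAL1 peaks around the RUNX and chondrogenic SOX genes were more frequent in every control list than in any senescent list when all distances were counted and the length of each list was taken into account. Within 100 kb of start sites the groups overlapped. The lists also differed in their share of peaks at start sites, for which the counts were not adjusted. Sox6, with 36 of the 100 peaks, had the most of any of the 7 genes. The 7 genes together had 9, 14 and 45 peaks in control replicates 1, 2 and 3 and 7, 17 and 8 peaks in senescent replicates 1, 2 and 3. The means were 22.7 ± 19.5 peaks in control libraries and 10.7 ± 5.51 peaks in senescent libraries (SD, n = 3 each), and the groups overlapped. The difference in means, senescent minus control, was −12 peaks, and without control replicate 3, the longest list, it was −0.833. Per 1000 peaks of the list, the 7 genes had 3.22, 4.18 and 4.24 peaks in control libraries and 1.66, 1.73 and 1.58 peaks in senescent libraries. On this scale the groups did not overlap, at 3.88 ± 0.573 against 1.66 ± 0.0753 peaks per 1000 (SD, n = 3 each). Among the 2794 best-scoring peaks of each list, a number set by the shortest list, the counts were 9, 10 and 6 in control libraries and 4, 4 and 4 in senescent libraries. Within 100 kb of a start site, however, the counts were 1, 5 and 17 in control libraries and 2, 9 and 2 in senescent libraries, a difference of −3.33, and the groups overlapped. Per 1000 peaks of the list, in a setting added after the data were seen, these were 0.358, 1.49 and 1.60 in control libraries and 0.474, 0.918 and 0.396 in senescent libraries, and overlapped as well. The separation of the groups thus did not hold for peaks within this distance. No test was made of these sums, because the genes were chosen with earlier results known.

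The stretch of genome nearest to the start sites of these genes is long, at 4.56 Mb in all or 0.167% of the genome, and peak density was therefore set against that of the whole genome. Density around the 7 genes was 1.92, 2.5 and 2.54 times the density of the whole genome in control replicates 1, 2 and 3. The senescent libraries had ratios of 0.991, 1.04 and 0.946. Senescent libraries thus placed about as many peaks around these genes as their length alone would give, and each control library placed more. The density of the whole genome includes peaks at start sites, whose share was larger in every senescent list than in any control list. The ratios were not adjusted for this. Around Sox6, whose own stretch was 0.765 Mb, the ratios were 5.10, 5.32 and 6.39 in control libraries and 1.69, 1.09 and 2.12 in senescent libraries.

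**Figure D1:**
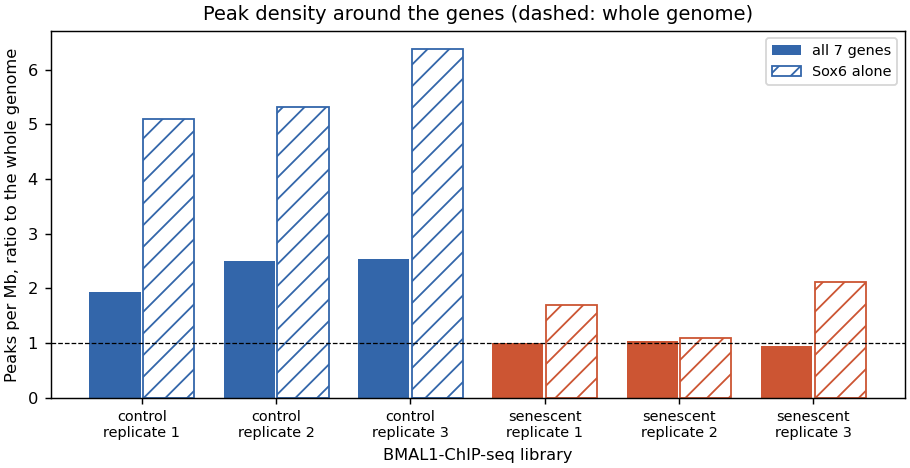
Peaks per Mb around the 7 genes (filled bars) and around Sox6 alone (hatched bars) as a ratio to the peaks per Mb of the whole genome in the same BMAL1-ChIP-seq library, with the dashed line at the genome's own density. The filled bars of the 3 control libraries stand at 1.92 to 2.54 and those of the 3 senescent libraries at 0.946 to 1.04.

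All 7 genes had a peak in at least 1 library, against 36.3% of protein-coding genes (7947 of 21864). This share is not matched for the stretch of genome around a gene. Apart from Cbfb (49.6%), the stretches of these genes were longer than those of 84.7 to 99.0% of genes. For each of the 7947 genes with a peak, the number of peaks per library was compared between groups. The comparison was an exact two-sided permutation test over the 20 arrangements of 6 libraries, for which the smallest possible p is 0.1. A gene was called higher in a group when every library of that group had more peaks than every library of the other. Every control library was above every senescent library for 1 of the 7 genes, Sox6, against 1.84% of all genes tested (146 of 7947). The opposite held for 0 of the 7 genes, against 5.12% of all genes tested (407 of 7947). Per 1000 peaks of the list, Sox5, Sox6 and Sox9 were higher in control libraries, against 4.01% of all genes (319 of 7947), and Cbfb was higher in senescent libraries, against 9.75% of all genes (775 of 7947). In the exact permutation test on peak numbers, 0 of the 7947 genes passed after Benjamini-Hochberg adjustment (all adjusted p = 1), and 553 genes reached the smallest p of 0.1, which is itself above 0.05. The calls are therefore orderings of 6 libraries and no gene passed the adjusted test.

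**Figure D2:**
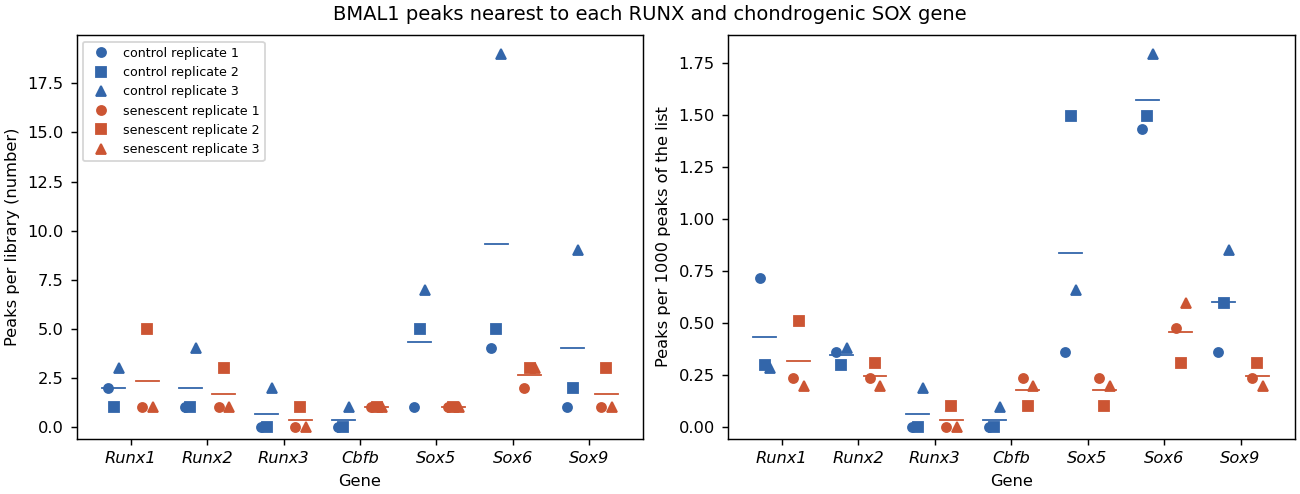
Number of BMAL1 peaks nearest to each gene in each library (left) and the same per 1000 peaks of that library's list (right), with control libraries in blue, senescent libraries in orange, a symbol for each replicate and a line at the group mean. For Sox6 the control libraries lie at 4, 5 and 19 peaks and the senescent libraries at 2, 3 and 3, and on the right the control libraries also lie above the senescent libraries for Sox5 and Sox9.

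Among the RUNX genes, the number of peaks did not separate the groups. Runx1, which encodes a factor required for blood stem cells and also used in mesenchyme, had 2, 1 and 3 peaks in control replicates 1, 2 and 3 and 1, 5 and 1 in senescent replicates 1, 2 and 3. Runx2, the osteoblast factor, had 1, 1 and 4 peaks in control libraries and 1, 3 and 1 in senescent libraries. Runx3, which acts in T cells and sensory neurons and with Runx2 in chondrocytes, had 0, 0 and 2 peaks in control libraries and 0, 1 and 0 in senescent libraries. The groups overlapped for all 3 genes, and the differences in means were 0.333 for Runx1 and −0.333 for both Runx2 and Runx3 (exact permutation test, p = 1 for each, adjusted p = 1). Across all genes with a peak the median difference was 0.333. Among the 2794 best-scoring peaks of each list, however, Runx1 had 2, 1 and 2 peaks in control libraries and 0, 0 and 0 in senescent libraries. The 5 Runx1 peaks of senescent replicate 2 thus all lay outside the 2794 best of its list. Under this setting every control library was above every senescent library for 4.85% of genes with a peak (217 of 4475). The opposite held for 6.53% (292).

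The Runx1 region with the best ranks was chr16:92653884-92654299, a stretch of 416 bp in an intron of Runx1 (ENSMUSG00000022952.17), 42.0 kb downstream of the nearest start site. Its place in a list is given here as a percentile of the score, from 0 for the best peak to 100 for the weakest. It ranked at percentiles 18.4, 23.0 and 3.32 in control replicates 1, 2 and 3 and at 67.4 in senescent replicate 2, and was not called in senescent replicates 1 and 3. Of 462 regions called in all 3 control libraries with a mean control percentile at least as good, 23 (4.98%) were called in 0 or 1 senescent libraries. An AP-1 motif lay 76 bp from its centre. It is named here because of these values and not by the rule for named regions.

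At a second Runx1 region the order was the opposite. The region chr16:92997782-92998140, intergenic and 171.7 kb upstream, was called in all 3 senescent libraries and in 0 control libraries. Its percentiles were 88.9, 92.0 and 72.7, among the weaker peaks of each senescent list, with an AP-1 motif 12 bp from the centre. Of the 2755 regions called in 3 of 3 senescent libraries, 22.8% (628) were called in 0 control libraries, so the absence of control calls was common for such regions. The remaining Runx1 regions were called in 1 library each, except chr16:93092828-93093401, 267 kb upstream, which was called in control replicates 1 and 3 at percentiles 87.6 and 18.6. The peak closest to a start site of any of the 7 genes, chr16:92697271-92697473, lay 44 bp upstream of a Runx1 start site and was called in senescent replicate 2 alone, at percentile 67.4.

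Runx2 (ENSMUSG00000039153.16, chromosome 17) and Runx3 (ENSMUSG00000070691.10, chromosome 4) had no region called in every library and none within 1000 bp of a start site. The intronic Runx2 region chr17:44709938-44710275, 25.5 kb downstream of the nearest start site, ranked at percentile 58.1 in control replicate 3 and at 90.9, 57.2 and 61.2 in senescent replicates 1, 2 and 3. The intergenic region chr17:44468488-44468710, 267 kb downstream, was called in control replicates 1 and 2 at percentiles 90.4 and 80.3 and in 0 senescent libraries, and held an E-box. Repeat-masked bases made up 45% of its window of 200 bp. The other 5 regions of Runx2 and all 3 regions of Runx3 were called in 1 library each, so the RUNX genes other than Runx1 offered little that recurred between libraries. Runx2 is among the genes that the study itself picked out from these libraries, and its values are no independent evidence of a direction.

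Cbfb (ENSMUSG00000031885.14, chromosome 8), which encodes the common partner of the RUNX proteins, had a single region. The region chr8:105186561-105186939 lay in an intron, 15.9 kb downstream of the nearest start site, with no motif of the panel. This region was called in control replicate 3 at percentile 35.1 and in senescent replicates 1, 2 and 3 at percentiles 71.1, 61.4 and 69.0. The peak numbers, 0, 0 and 1 against 1, 1 and 1, overlapped between groups (difference in means 0.667, exact permutation test, p = 0.4, adjusted p = 1). Scaled to 1000 peaks of the list, they were 0, 0 and 0.0943 in control libraries and 0.237, 0.102 and 0.198 in senescent libraries, which did not overlap (exact permutation test, p = 0.1, adjusted p = 0.726). This ordering rests on a single weak peak per senescent list, and 162 other genes had exactly the same 6 peak numbers as Cbfb.

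The SOX genes accounted for most of the difference between control and senescent lists. Sox5 (ENSMUSG00000041540.16, chromosome 6), which encodes a SOX protein without a transactivation domain that helps SOX9 on cartilage genes, had 1, 5 and 7 peaks in control replicates 1, 2 and 3 and 1 peak in each senescent library. The means were 4.33 ± 3.06 and 1.00 ± 0 peaks (SD, n = 3 each), the groups overlapped at 1 peak, and the difference was −3.33 (exact permutation test, p = 0.4, adjusted p = 1). When scaled in this way, Sox5 had 0.358, 1.49 and 0.660 peaks in control libraries and 0.237, 0.102 and 0.198 peaks in senescent libraries, with no overlap (exact permutation test, p = 0.1, adjusted p = 0.726).

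The only Sox5 peak of every senescent list fell in a region that all 6 libraries shared. This region, chr6:144074870-144075364, 495 bp in an intron of Sox5 and 128 kb upstream of the nearest start site, was the best-ranked region of the 7 genes that was called in every library. It ranked at percentiles 15.5, 16.8 and 3.94 in control replicates 1, 2 and 3 and at 30.9, 26.8 and 15.7 in senescent replicates 1, 2 and 3. The control percentiles tended to be smaller, that is better, but control replicate 2 and senescent replicate 3 overlapped. By rank itself it stood at 434, 561.5 and 418 in control lists and at 1305.5, 2629.5 and 792.5 in senescent lists, without overlap. The mean ranks were 471 ± 78.6 and 1576 ± 948 (SD, n = 3 each, exact permutation test, p = 0.1, adjusted p = 0.278). Rank itself depends on the length of the list, and 18.4% of the 1106 regions called in all 6 libraries (203) had every control rank better than every senescent rank. The printed window shows AP-1 motifs 47 bp to the left and 42 bp to the right of the centre and the E-box 89 bp to the right.

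Further Sox5 regions were called in control libraries only. The intronic region chr6:144056773-144057297 ranked at percentiles 37.2 and 13.1 in control replicates 2 and 3, and the intergenic region chr6:143558412-143558781, 388.6 kb downstream of the nearest start site, ranked at 51.5 and 43.2 in the same libraries. The other 6 Sox5 regions were called in 1 control library each, 4 of them in control replicate 3. Senescent libraries had no Sox5 peak outside the shared region. The difference in Sox5 peaks was smaller, at −1, both within 100 kb of a start site and above the median score, and −0.667 when start sites of any gene were allowed.

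Sox6, the partner of Sox5 in chondrocytes and also a repressor in red cell and muscle development, had the most peaks of the 7 genes. Sox6 (ENSMUSG00000051910.13, chromosome 7) had 4, 5 and 19 peaks in control replicates 1, 2 and 3 and 2, 3 and 3 peaks in senescent replicates 1, 2 and 3. Every control library lay above every senescent library, although control replicate 1 did so by a single peak. The means were 9.33 ± 8.39 and 2.67 ± 0.577 peaks (SD, n = 3 each) and the difference was −6.67 (exact permutation test, p = 0.1, adjusted p = 1). When control replicate 3 was left out, the difference shrank to −1.83. Per 1000 peaks of the list, Sox6 had 1.43, 1.49 and 1.79 peaks in control libraries and 0.474, 0.306 and 0.594 peaks in senescent libraries. The control values lay close together on this scale, at 1.57 ± 0.193 against 0.458 ± 0.145 (SD, n = 3 each, exact permutation test, p = 0.1, adjusted p = 0.726). Among the 2794 best-scoring peaks of each list, Sox6 had 4, 4 and 2 peaks in control libraries and 2, 1 and 2 in senescent libraries, and the groups then overlapped at 2 peaks.

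The 20 Sox6 regions ran from upstream of the gene to 484 kb downstream of its nearest start site, and 17 of them lay within Sox6 itself. Both regions of the 7 genes that were called in all 3 control libraries and in 0 senescent libraries were in Sox6 introns. The region chr7:115624795-115625451, at 657 bp, 199.6 kb downstream of the nearest start site, ranked at percentiles 37.7, 15.4 and 11.2 in control replicates 1, 2 and 3. Of 624 regions called in all 3 control libraries with a mean control percentile at least as good, 31 (4.97%) were called in 0 senescent libraries. The region chr7:115548408-115548836, 276 kb downstream, ranked at percentiles 77.1, 37.5 and 10.4 in the control libraries. Of 1114 regions with a mean at least as good as that of this second region, 107 (9.61%) were called in 0 senescent libraries. For comparison, 16.3% of all regions called in 3 of 3 control libraries (265 of 1623) were called in 0 senescent libraries. Neither window held a motif of the panel, and the second region held a SOX motif 147 bp from its centre.

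Other Sox6 regions were called in both groups. The intronic region chr7:115686605-115687076, 137.8 kb downstream, was called in all 6 libraries, at percentiles 78.7, 14.0 and 94.6 in control replicates 1, 2 and 3 and at 29.2, 12.5 and 53.8 in senescent replicates 1, 2 and 3. The spread between control libraries was wide, from the better end of the list of replicate 2 to near the bottom of the lists of replicates 1 and 3, and the groups overlapped. This region held the E-box 64 bp and a RUNX motif 14 bp from the centre. Neither this region nor the shared Sox5 region separated the groups in percentile rank (0 of 2), against 4.7% of the 1106 regions called in all libraries in which every control percentile was better (52) and 12.9% in which every senescent percentile was better (143). The smallest adjusted p over these 1106 regions was 0.567 (exact permutation test). A stretch annotated as untranslated region of Sox6, chr7:115474176-115474417, showed the opposite tendency, at percentile 78.3 in control replicate 3 and at 34.6, 29.1 and 35.0 in senescent replicates 1, 2 and 3, and held an AP-1 motif. The intergenic region chr7:115340249-115340745 was called in control replicates 2 and 3 at percentiles 69.6 and 52.8 and in senescent replicate 3 at 71.0.

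Close to Sox6 start sites, calls were few. The regions chr7:115824820-115825051 and chr7:115825282-115825726, 226 and 794 bp upstream of a start site, were called in control replicate 3 alone at percentiles 42.8 and 45.5. Both held a SOX motif, 7 bp from the centre in the first and 128 bp in the second. Control replicate 3 was the sole library for 13 of the 20 Sox6 regions, at percentiles from 31.1 to 99.4 with a median of 65.7.

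Sox9 (ENSMUSG00000000567.5, chromosome 11), the gene of the cartilage master regulator, lies in a wide stretch without other protein-coding genes, and 0 of its 13 regions lay inside it. It had 1, 2 and 9 peaks in control replicates 1, 2 and 3 and 1, 3 and 1 peaks in senescent replicates 1, 2 and 3. The means of 4.0 ± 4.36 and 1.67 ± 1.15 peaks (SD, n = 3 each) differed by −2.33, less than the spread between control libraries (exact permutation test, p = 0.7, adjusted p = 1). When control replicate 3 was left out, it was 0.167, in the opposite direction. Per 1000 peaks of the list, Sox9 had 0.358, 0.597 and 0.849 peaks in control libraries and 0.237, 0.306 and 0.198 in senescent libraries (exact permutation test, p = 0.1, adjusted p = 0.726). These groups did not overlap, but 8 of the 13 regions were called in control replicate 3 alone and, among the 2794 best-scoring peaks of each list, Sox9 had 1, 0 and 0 peaks in control libraries and 1, 1 and 1 in senescent libraries.

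The single Sox9 peak that each senescent list kept under equal peak numbers was in the region chr11:113103001-113103545. This intergenic region of 545 bp, 321 kb downstream of the Sox9 start site, was called in 3 senescent libraries at percentiles 17.2, 11.0 and 15.9 and in 0 control libraries. It was thus among the stronger peaks of every senescent list, unlike the region upstream of Runx1 with the same calls. Of 715 regions called in all 3 senescent libraries with a mean senescent percentile at least as good, 38 (5.31%) were called in 0 control libraries. Its printed window is 220 bp long because the E-box lay 99 bp from the centre and crossed the edge of the 200 bp window in which motifs were counted. The window also held TGACGTCA, the cyclic AMP response element, a pattern looked for after the sequence had been seen, which occurred in 1 of the 59 regions (1.69%) and in 1.31% of all regions. At the start site itself, the region chr11:112781617-112782329, centred 157 bp upstream, was called in control replicates 2 and 3 at percentiles 84.6 and 31.6 and in senescent replicate 2 at 96.5, with an AP-1 motif 78 bp from the centre.

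**Figure D3:**
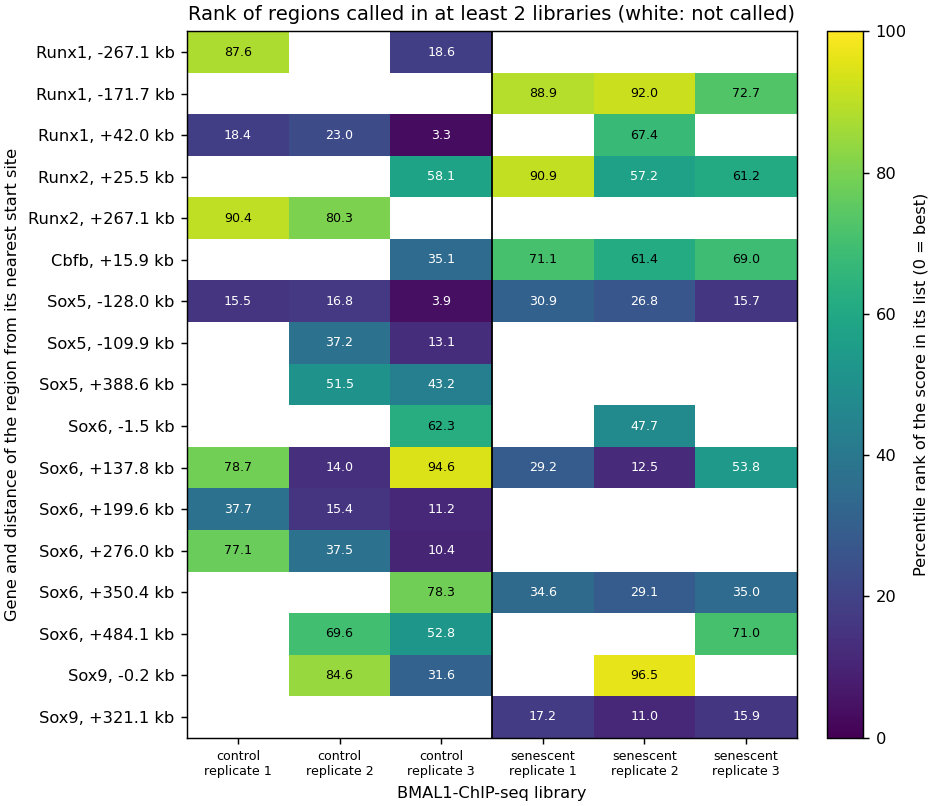
Percentile rank of the score (0 = best, colour and number) in each of the 6 BMAL1-ChIP-seq libraries for the regions called in at least 2 libraries, one region per line with its gene and its distance from the nearest start site in kb, and white where the region was not called. The Sox5 region at −128.0 kb is filled in all 6 libraries, the Sox6 regions at +199.6 and +276.0 kb in control libraries only and the Sox9 region at +321.1 kb in senescent libraries only.

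Occupancy was next counted over all 59 regions. Regions called in at least 2 control libraries and in 0 senescent libraries (control-only) numbered 6, or 10.2%, against 5.86% of all regions (986 of 16818), and comprised 1 at Runx1, 1 at Runx2, 2 at Sox5 and 2 at Sox6. Regions called in at least 2 senescent libraries and in 0 control libraries (senescent-only) numbered 2, or 3.39%, against 9.44% of all regions (1588), with 1 at Runx1 and 1 at Sox9. The control-only count was 3 without control replicate 2 and 3 without control replicate 3, and the senescent-only count was 5 without control replicate 3. Regions called in all 6 libraries also numbered 2, or 3.39%, against 6.58% of all regions (1106). Most of the 59 regions, 42 or 71.2%, were called in a single library, against 55.7% of all regions. Control replicate 3 held 30 of these 42 regions (71.4%), against 49.9% of all regions called in a single library, and senescent replicate 2 held 7. Across these 30 regions the percentiles in control replicate 3 ranged from 31.1 to 99.4 with a median of 72.0, so most were in the weaker part of that list.

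**Figure D4:**
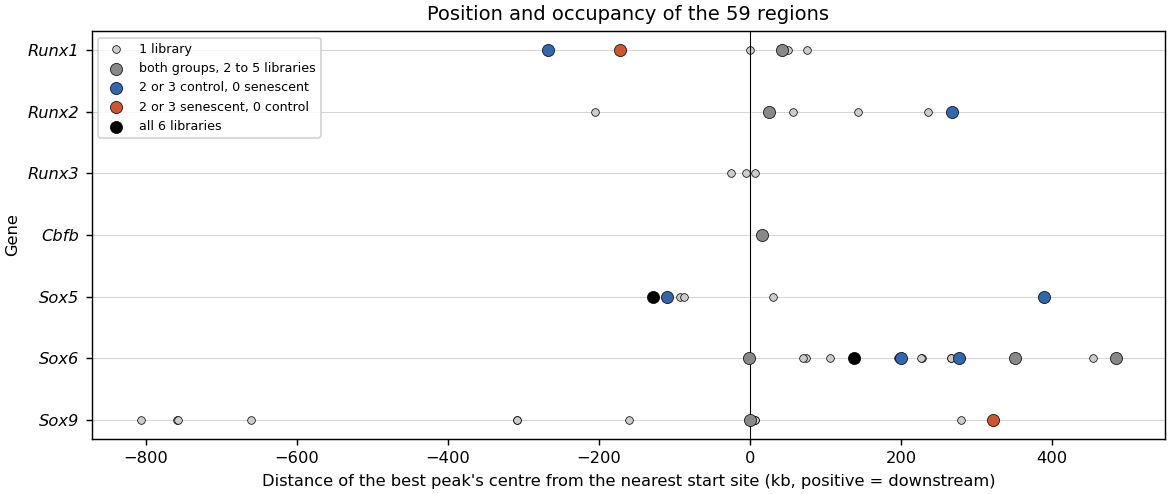
Distance in kb of the centre of the best peak of each of the 59 regions from the nearest start site of its gene, positive downstream, with small grey circles for regions called in 1 library and larger circles for those called in 2 or more. Regions called in control libraries only (blue) lie at Runx1, Runx2, Sox5 and Sox6, those called in senescent libraries only (orange) at Runx1 and Sox9, and those called in all 6 libraries (black) at Sox5 and Sox6.

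The regions of these genes lay far from start sites. Their median distance was 138.5 kb, against 8.04 kb over all regions, and 35 of 59 (59.3%) were more than 100 kb away, against 11.4% of all regions. Within 1000 bp of a start site lay 4 regions (6.78%), against 33.9% of all regions. By place, 31 regions lay in introns, 26 between genes, 1 in a coding exon and 1 in an untranslated region. They were shorter than regions in general, with a median of 180 bp against 219 bp, and had a lower GC content, with a median of 45.5% against 51.0% in windows of 200 bp. When start sites of all annotated genes were allowed, non-coding genes included, 38 of the 100 peaks were still nearest to a member of the group and 62 to another gene. Assignment by nearest start site does not show which gene a region acts on.

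Motifs were counted within 100 bp of the centre of the best-ranked peak. The E-box CACGTG occurred in 5 of 59 regions (8.47%), against 16.7% of all regions, and its variant CACGTT in 1 (1.69%), against 6.01%. The AP-1 motif occurred in 13 regions (22.0%), against 16.5% of all regions. The RUNX motif TGTGGTT occurred in 6 regions (10.2%, against 7.23%) and the SOX motif AACAATG in 3 (5.08%, against 2.40%), while 33 regions (55.9%) held no motif of the panel, against 58.5% of all regions. Because these regions were mostly distant, they were also set against regions more than 1000 bp from any start site. Among such regions the AP-1 motif occurred in 12 of 55 (21.8%) against 22.4%, and the E-box in 5 of 55 (9.09%) against 15.2%. The RUNX motif then occurred in 6 of 55 (10.9%) against 9.48%, and the SOX motif in 2 of 55 (3.64%) against 3.02%. RUNX, SOX and AP-1 motifs were thus about as frequent at these genes as at other distant BMAL1 peaks. A match is a description of the sequence and does not show that a factor bound there.

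Other genes of the same pathways were counted from fixed lists. Of 16 RUNX partners and regulators, 15 had a peak, of which 1 was higher in control libraries and 0 in senescent libraries, with a median difference of 0. Over all genes, 36.3% had a peak, and of these 1.84% were higher in control libraries and 5.12% in senescent libraries, with a median difference of 0.333. The called gene was Runx1t1, a corepressor known as a fusion partner of RUNX1 in leukaemia, with 1, 3 and 10 peaks in control replicates 1, 2 and 3 and 0 peaks in each senescent library (exact permutation test, p = 0.1, adjusted p = 1). Hdac4, a deacetylase that holds RUNX2 in check, and Tle3, a Groucho corepressor, each held a region called in all 6 libraries. Hdac4 had 2, 1 and 1 peaks in control libraries and 1, 3 and 1 in senescent libraries. Tle3 had 3, 3 and 7 peaks in control libraries and 2, 4 and 3 in senescent libraries. Per 1000 peaks of the list, Runx1t1 and Tle3 were among the genes of this list that were higher in control libraries, and Smurf2, a ubiquitin ligase, was higher in senescent libraries, where 4.01% and 9.75% of all genes were so called. Summed over this list, control libraries had 3.94, 2.99 and 4.15 peaks per 1000 and senescent libraries 2.13, 2.35 and 1.98. These sums did not overlap, although the summed peak numbers, 11, 10 and 44 against 9, 23 and 10, did.

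Cartilage genes, a list that includes the matrix genes best known as targets of the SOX trio, had the widest difference of the lists. Of 19 cartilage genes, 12 had a peak, of which 5 were higher in control libraries (1.84% over all genes) and 0 in senescent libraries (5.12% over all genes), with a median difference of −1.33 (0.333 over all genes). Wwp2, a ubiquitin ligase gene that hosts the cartilage microRNA miR-140, had 17, 23 and 37 peaks in control replicates 1, 2 and 3 and 2, 3 and 1 peaks in senescent replicates 1, 2 and 3. Col11a1, a chain of cartilage collagen XI, had 1, 2 and 17 peaks in control libraries and Cnmd, which encodes chondromodulin, had 1, 2 and 6, and both had 0 peaks in each senescent library. Col9a3, a chain of collagen IX, had 2, 2 and 3 peaks in control libraries against 1, 0 and 0, and Acan, the gene of aggrecan, had 1, 1 and 2 against 0, 0 and 0 (exact permutation test, p = 0.1 and adjusted p = 1 for each of the 5 genes). The same 5 genes were higher in control libraries per 1000 peaks of the list, against 4.01% of all genes. Col2a1 and Col9a1, the genes of the main collagen of cartilage and of a chain of collagen IX, overlapped between groups, with 0, 1 and 5 against 0, 1 and 1 peaks and with 0, 0 and 7 against 0, 0 and 0 peaks. Col2a1, Col9a1 and Col11a1 are among the genes that the study picked out from these libraries, so their counts are no independent evidence of a direction.

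Summed over the cartilage list, control libraries had 23 to 82 peaks and senescent libraries 3 to 6, or 7.74 to 10.2 against 0.594 to 0.948 peaks per 1000. Without Wwp2, the sums were 2.15 to 4.24 peaks per 1000 in control libraries and 0.306 to 0.474 in senescent libraries. All these sums include Col2a1, Col9a1 and Col11a1, which the study picked out from these libraries. They are therefore no independent evidence of a direction. As a description, the cartilage list had more peaks in every control list than in any senescent list. The 7 genes together did so per 1000 peaks of the list but not in peak number. Of the SOX trio, only Sox6 had more in every control list, and Sox5 and Sox9 did so only per 1000 peaks. How the peaks at the SOX genes relate to those at cartilage genes was not tested. Of 12 osteoblast and growth plate genes, 4 had a peak and 0 were called in either direction, with a median difference of −0.333. Of 16 other SOX genes, 3 had a peak and 0 were called, with a median difference of −0.333. The 6 clock genes Per1, Per2, Ciart, Dbp, Nr1d1 and Nr1d2, taken as a reference for BMAL1 binding, each held a region called in all 6 libraries and 0 of them were called in either direction, with a median difference of −0.5. Per 1000 peaks of the list, however, their sums were uneven, at 7.16, 4.48 and 1.51 in control replicates 1, 2 and 3. In senescent replicates 1, 2 and 3 they were 2.61, 2.14 and 2.37, and the groups overlapped.

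**Figure D5:**
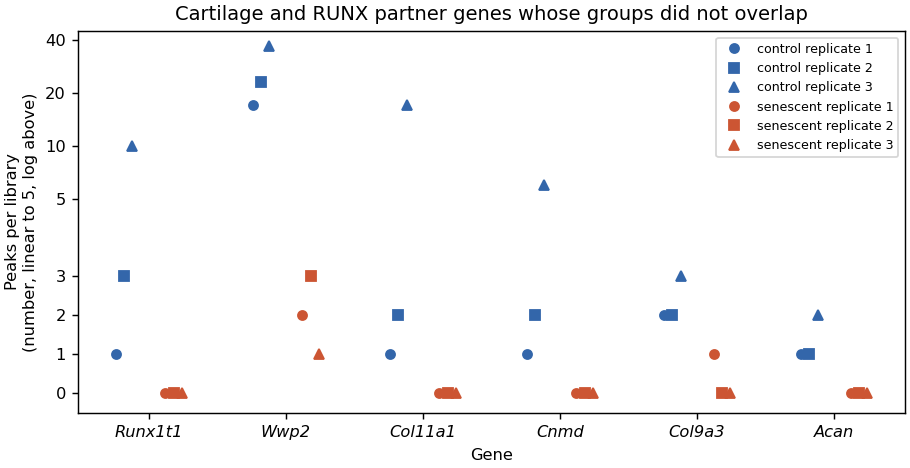
Number of BMAL1 peaks per library (axis linear to 5 and logarithmic above) for the genes of the RUNX partner and cartilage lists whose groups did not overlap, with control libraries in blue, senescent libraries in orange and a symbol for each replicate. Wwp2 stands at 17 to 37 peaks in control libraries and 1 to 3 in senescent libraries, and Runx1t1, Col11a1, Cnmd and Acan have 0 peaks in every senescent library.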

How the data were processed

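BMAL1-ChIP-seq libraries of control and senescent MAFs (n = 3 each) were analysed from their peak lists, with groups and replicate numbers taken from the titles. Per the study's methods, the authors mapped reads to mm10 with the Burrows-Wheeler Aligner, removed duplicates with Picard and called peaks with Model-Based Analysis of ChIP-Seq at an FDR of 1% or less. The file headers name MACS2, and each library has a peak list of its own. The labels and the methods name different suppliers for the antibody. The peak score that the authors deposited was taken to be the −log10 of a q-value, inferred from smallest scores between 2.02 and 2.12, and was used only to rank peaks within a list, tied scores sharing a mean rank. Peak lists hold no reads, so depth is unknown and no interval was computed. Every pair of libraries shared 0 identical peaks.

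Peaks were assigned to the nearest start site of a protein-coding transcript (GENCODE M21) by their centre, merged at an overlap of 1 bp, and searched for exact motifs on both strands within 100 bp of the centre. Numbers of peaks and percentile ranks were compared with exact two-sided permutation tests, with Benjamini-Hochberg adjustment over all genes with a peak or all regions called in 6 libraries (python 3.11.15, numpy 2.4.6, pandas 2.3.3, matplotlib 3.10.9). The genes, lists and tests were chosen with earlier results of these data known. Named were all 7 genes and, for each, the best-ranked control-only, senescent-only and shared region, every region called in 3 libraries of a group and 0 of the other, and every region within 1000 bp of a start site. Members of the fixed lists were named when called or when holding a region in all 6 libraries. Other regions, and Col2a1, Col9a1 and Smurf2, were named after their values were seen. The values of a further gene of the RUNX partner list are not reported here. Alternatives were a stricter score, equal peak numbers, each library left out, start sites of any gene, a limit of 100 kb, peaks per 1000 peaks of the list, an overlap of 50% of the shorter peak, 3 of 3 calls, rank itself, pairing by number and other motif windows. Scripts were tested on simulated data. The read-based DiffBind comparison of the study was not repeated.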

Additional observations from a re-analysis of the deposited data

How the results depend on the processing

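Differences are senescent minus control means of peaks per library. A stricter score, above the list median, turned the direction of Runx1 (−1.33), Runx2 (0.333), Runx3 (0.333), Cbfb (−0.333) and Sox9 (0.333), and left 0 genes higher in control libraries and 1 region in all libraries. Equal peak numbers turned Runx1 (−1.67), Runx3 (0.333) and Sox9 (0.667), gave a total difference of −4.33, 1 region in all libraries and 1 of them separated by rank. Sox6 overlapped between groups under both settings and within 100 kb of a start site (−1, −1.67 and −1.67 peaks). Start sites of any gene turned Runx3 (0.333) and left 2 control-only, 0 senescent-only and 1 shared region, whereas the limit of 100 kb left 0 genes higher in control libraries and 0 regions of each of these kinds. Per 1000 peaks, Runx1 turned (−0.118), 3 genes were higher in control libraries and 1 in senescent libraries, and the total difference was −2.22. Requiring 3 of 3 calls left 2 control-only regions, and rank itself separated 1 shared region. The E-box was in 19.0% of regions above the median score, 33.3% under equal peak numbers and 1.69% within 50 bp. AP-1 was in 11.9% within 50 bp. SOX was in 0% under equal peak numbers and 1.69% within 50 bp, and the E-box variant in 0% under equal peak numbers. Leaving out each library in turn gave 1 to 2 genes higher in control libraries, 0 to 1 higher in senescent libraries, total differences from −18.8 to −0.833, 3 to 8 control-only and 2 to 5 senescent-only regions and 0 to 2 shared regions separated by rank, with ranges of −1 to 1 at Runx1, −1 to 0.667 at Runx2, −0.667 to 0.333 at Runx3, −9.33 to −1.83 at Sox6 and −3.83 to 0.167 at Sox9. Differences at Sox5 (−5 to −2) and Sox6 stayed below 0 when any library was left out. The total difference was −2.67 above the median score, −3.33 within 100 kb (−0.556 per 1000 peaks) and −7.33 with start sites of any gene. The cause of these shifts was not tested. Of 199 alternative values, 61 for single genes kept their direction and side of the threshold. Another 15 for single genes reversed, 3 lost the separation of the groups and 5 gained it. For counts and shares, 83 stayed close to the reported value and 32 moved away from it.

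Libraries of the same number did not deviate together (correlations over genes of 0.0992, −0.0988 and −0.0962), so the numbers were not taken as pairs. With a replicate block, 1 gene was higher in control libraries (2.38% of all genes, 189 of 7947) and 0 in senescent libraries (6.27%, 498). The total difference was −12. Each of the 2 regions called in all 6 libraries had its 3 pairs on one side, where the smallest p is 0.25. The sides were opposite, with better control percentiles at Sox5 and better senescent percentiles at Sox6. Only control replicate 1 correlated best with its own number. Depth is unknown, so a peak not called in a short list cannot be told from a weaker one, and with 3 libraries a group no comparison could pass 0.05.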
